A study of Mus musculus with 14 samples.

Results

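Open chromatin was examined in 9 windows of the mouse genome, each reaching from 50 kb before to 50 kb after the body of a gene that sets or reads mammary cell identity: Elf5, Gata3, Esr1, Pgr, Prlr, Kit, Sox9, Sox10 and Trp63. Every peak that overlapped a window in any of 7 peak lists was kept. Overlapping peaks of the lists were joined into regions, which gave 96 regions at the 9 genes among 108795 in the genome. The lists came from bulk Pi-ATAC, in which fixed cells are transposed so that open DNA is cut and tagged, of the 4T1 cell line. 4T1 is a mouse breast cancer line in culture. The 14 samples formed 7 groups of 2 replicates: a normoxic culture (normoxia) and cells kept in a workstation at 1% O2 and 5% CO2 for 6, 12, 24, 36, 48 or 72 h, without antibody. The oxygen level of the normoxic culture is not given in its labels, whose treatment text describes the 1% O2 workstation for it too. For 4T1 cells stained for a hypoxia-inducible factor, the study describes a control culture with less oxygen than room air holds, so normoxia is used here as the name of the group and not as a measured level. The 2 replicates of a group had been merged before peaks were called, so each list is a single value, no replicate error could be computed, and no difference between lists was tested.

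In the mammary gland, luminal cells line the duct. They are divided into hormone-sensing cells, which carry the estrogen and progesterone receptors, and progenitor and milk-secreting cells. Prolactin acts on milk-secreting cells, though not on them alone. Basal cells form the contractile outer layer. GATA3 and ELF5 are transcription factors of the luminal side, p63 (the product of Trp63) is a master factor of the basal side, and SOX9 and SOX10 mark cells with progenitor features. KIT is a receptor tyrosine kinase of luminal progenitors. Genes of this kind are often controlled by enhancers far from the start, so open regions were followed both at the promoter (within 1 kb of an annotated start) and away from it (distal).

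The lists held 49006 to 81732 peaks. The deposited fold enrichment divides the reads at the peak summit by the local background, after the same small constant is added to both. The constant weighs most where the background is low, as in normoxia, so the fold is not the plain ratio. The deposited -log10 q gives the strength of the call. Background reads recovered from these columns stood at 0.926 for normoxia and at 1.85 to 3.25 for hypoxia, with the most at 6 h, so the lists differ in depth. The 6 h list also had the lowest median fold over the 36113 regions present in all 7 lists, 5.85 against 6.88 to 8.98 elsewhere. The part of depth in the results was not tested. In bulk cells, fewer cells with an open region and less opening per cell cannot be told apart. As a check of the cell type, 6 of 7 epithelial genes (Epcam, Krt8, Krt18, Cdh1, Esrp1 and Grhl2, but not Cldn7) were open at the promoter in every list. Of 5 immune, 4 fibroblast, 4 endothelial and 3 adipocyte genes, Cd68 and Pdgfra had a peak in all 7 lists, Col1a1, Pecam1 and Pparg in some, and the others, among them Ptprc, Cdh5 and Adipoq, in none.

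The region with the highest -log10 q of each gene is shown by sequence, 100 bases to each side of its strongest summit, on the plus strand of mm9 (NCBIM37). They are an intronic site in the neighbouring Cat gene for Elf5 (chr2:103304754-103304954), introns of Gata3 (chr2:9801247-9801447), Esr1 (chr10:5725254-5725454), Pgr (chr9:8964638-8964838), Prlr (chr15:10122173-10122373) and Kit (chr5:75985698-75985898), intergenic sites before Sox9 (chr11:112619415-112619615) and past Trp63 (chr16:25942466-25942666), and an intron of Micall1 next to Sox10 (chr15:78961969-78962169). Capitals mark the AP-1 motif TGANTCA, bound by FOS and JUN proteins, in 7 of the 9. It was in 37.5% of all regions and in 44.1% of all shared regions. The 9 were picked as the strongest of each gene, so this count is no sign of how common the motif is. The Esr1 and Pgr regions hold no AP-1 motif, and capitals mark there the ETS motif (CGGAAG or AGGAAG) and the forkhead motif TGTTTAC, bound by proteins such as FOXA1. Each motif was read on either strand.

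Elf5 region 6: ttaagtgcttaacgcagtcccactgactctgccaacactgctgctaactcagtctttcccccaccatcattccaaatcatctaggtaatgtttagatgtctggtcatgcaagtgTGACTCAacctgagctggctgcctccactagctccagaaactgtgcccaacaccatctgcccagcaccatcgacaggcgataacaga
Gata3 region 8: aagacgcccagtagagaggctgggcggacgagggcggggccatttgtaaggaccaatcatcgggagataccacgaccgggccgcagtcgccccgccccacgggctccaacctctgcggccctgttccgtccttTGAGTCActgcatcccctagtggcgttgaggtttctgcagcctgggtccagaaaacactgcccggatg
Esr1 region 14: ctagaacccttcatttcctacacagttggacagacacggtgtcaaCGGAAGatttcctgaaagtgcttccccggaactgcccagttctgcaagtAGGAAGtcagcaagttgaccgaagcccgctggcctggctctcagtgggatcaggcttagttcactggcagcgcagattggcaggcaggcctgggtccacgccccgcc
Pgr region 7: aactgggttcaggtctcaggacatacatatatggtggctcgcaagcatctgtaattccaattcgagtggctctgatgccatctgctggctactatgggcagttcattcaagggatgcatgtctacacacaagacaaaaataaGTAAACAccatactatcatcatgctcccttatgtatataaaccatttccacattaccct
Prlr region 2: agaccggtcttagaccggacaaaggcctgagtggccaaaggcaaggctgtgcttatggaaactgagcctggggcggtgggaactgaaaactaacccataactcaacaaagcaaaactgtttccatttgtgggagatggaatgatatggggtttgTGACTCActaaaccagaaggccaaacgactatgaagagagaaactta
Kit region 2: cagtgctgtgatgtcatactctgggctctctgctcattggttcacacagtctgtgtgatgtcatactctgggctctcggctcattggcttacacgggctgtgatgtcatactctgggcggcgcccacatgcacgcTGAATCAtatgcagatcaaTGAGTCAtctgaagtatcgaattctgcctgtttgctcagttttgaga
Sox9 region 2: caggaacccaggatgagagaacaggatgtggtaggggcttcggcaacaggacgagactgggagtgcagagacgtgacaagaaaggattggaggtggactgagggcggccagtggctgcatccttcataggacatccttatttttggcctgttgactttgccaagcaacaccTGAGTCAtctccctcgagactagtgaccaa
Sox10 region 4: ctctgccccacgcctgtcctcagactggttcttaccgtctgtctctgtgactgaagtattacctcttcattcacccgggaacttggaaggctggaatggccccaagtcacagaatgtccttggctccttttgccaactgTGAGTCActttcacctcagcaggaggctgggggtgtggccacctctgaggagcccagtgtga
Trp63 region 18: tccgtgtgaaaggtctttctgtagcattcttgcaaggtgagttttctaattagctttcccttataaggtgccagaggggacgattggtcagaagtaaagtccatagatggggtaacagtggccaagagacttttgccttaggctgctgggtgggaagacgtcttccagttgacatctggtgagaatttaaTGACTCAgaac

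A further 5 regions were chosen after the values and the motif search were seen, so that their motifs are no sign of how common a motif is. The promoters of Esr1 (chr10:5733997-5734197) and Sox9 (chr11:112643342-112643542) are shown as open in every list, and an intergenic site past Trp63 (chr16:25934398-25934598) because its fold was above that of normoxia at most times, all with AP-1 in capitals. A pair of sites past Sox9 (chr11:112672971-112673171 and chr11:112685524-112685724) is shown because each holds both AP-1 and a SOX motif (ACAAAG or ACAATG, on either strand), all in capitals.

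Esr1 region 15: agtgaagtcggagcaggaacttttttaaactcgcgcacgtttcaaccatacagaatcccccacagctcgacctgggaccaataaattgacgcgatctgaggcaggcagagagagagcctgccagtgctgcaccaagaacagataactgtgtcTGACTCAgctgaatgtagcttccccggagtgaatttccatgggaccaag
Sox9 region 4: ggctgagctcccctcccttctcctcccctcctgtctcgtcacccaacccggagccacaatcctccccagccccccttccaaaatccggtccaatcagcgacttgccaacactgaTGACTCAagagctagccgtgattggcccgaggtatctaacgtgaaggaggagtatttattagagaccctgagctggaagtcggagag
Trp63 region 17: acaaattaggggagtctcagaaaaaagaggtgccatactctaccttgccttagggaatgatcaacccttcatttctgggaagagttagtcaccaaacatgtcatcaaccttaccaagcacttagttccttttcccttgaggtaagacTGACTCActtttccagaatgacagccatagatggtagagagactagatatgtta
Sox9 region 8: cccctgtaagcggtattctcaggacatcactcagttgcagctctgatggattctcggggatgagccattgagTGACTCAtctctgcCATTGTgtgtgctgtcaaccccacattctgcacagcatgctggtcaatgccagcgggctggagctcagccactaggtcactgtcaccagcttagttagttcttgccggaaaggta
Sox9 region 9: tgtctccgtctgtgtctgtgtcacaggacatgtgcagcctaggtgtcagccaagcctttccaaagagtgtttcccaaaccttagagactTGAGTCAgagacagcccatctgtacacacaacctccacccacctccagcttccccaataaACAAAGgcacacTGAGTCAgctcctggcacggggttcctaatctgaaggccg

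Of the 96 regions, 33 (34.4%) had a peak in all 7 lists, beside 33.2% of all regions. A further 26 (27.1%) were in 1 list alone, beside 26.6% of all regions, and 37 were in 2 to 6 lists. The 33 shared regions were wide and strong, with a median width of 773 bp and a median highest -log10 q of 33.6. The 26 regions of a single list had a median width of 228 bp and a median highest -log10 q of 3.32. Part of this contrast is built in. A region spans all its joined peaks, and its highest -log10 q is taken over all lists that have it. By position, 12 regions lay at a member's own promoter, 5 at the promoter of a neighbouring gene and 79 were distal. Of the distal regions 23 were in all 7 lists, and of the 12 promoter regions 6 were. Genome shares for promoter and distal regions apart are not given here, so this difference is not read as a trait of these genes. The windows held 4.97 regions per 100 kb, within the quartiles of 2.99 and 8.78 for the same windows around 22367 protein-coding genes.

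**Figure D1:**
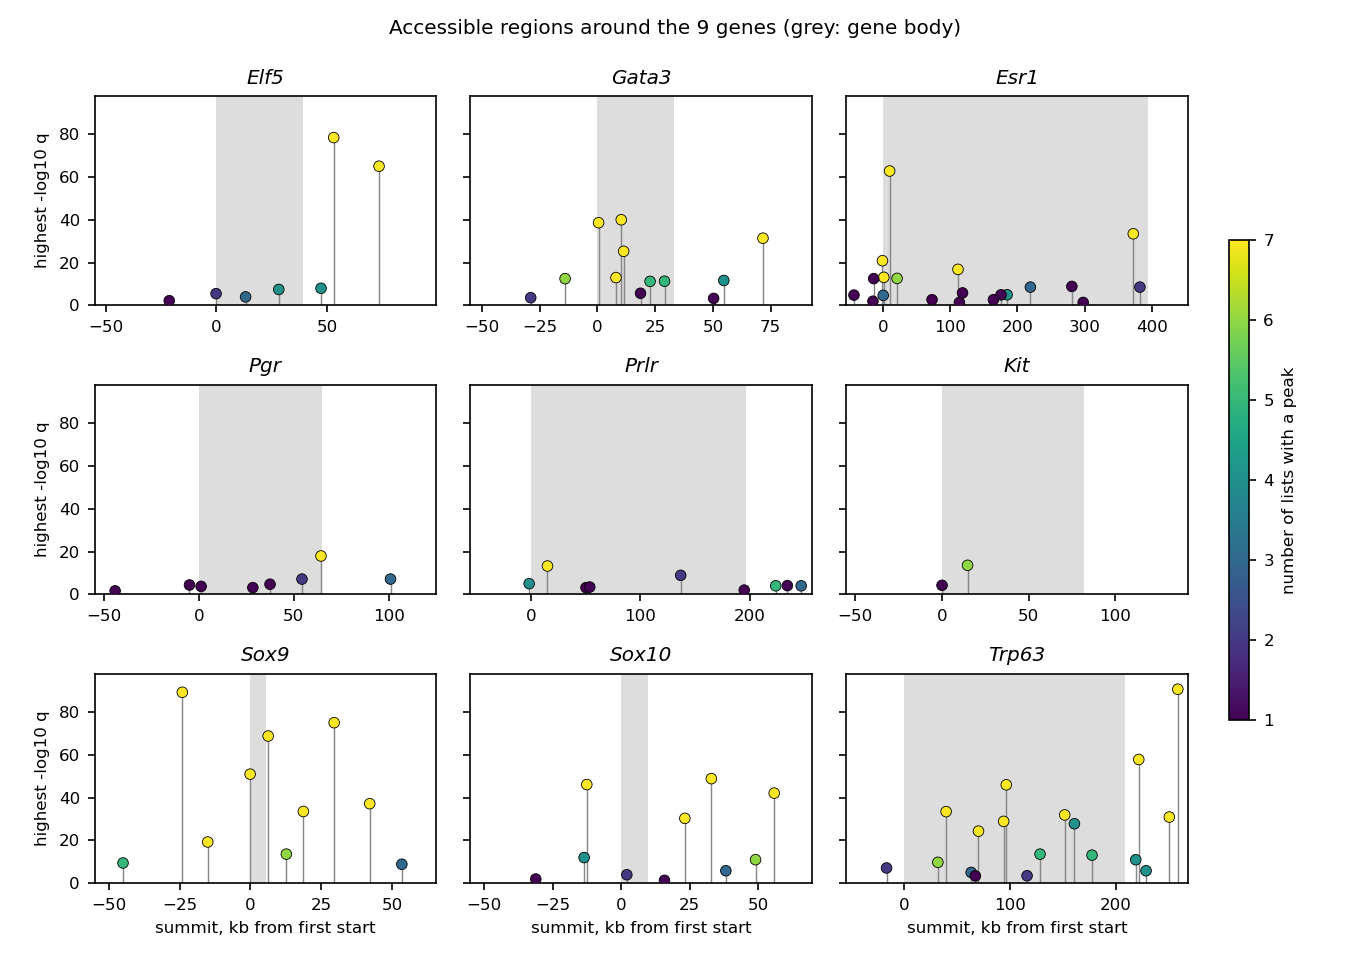
Regions around the 9 genes, with the summit's distance from the first annotated start (kb) on the x axis and the highest -log10 q over the 7 lists on the y axis. Grey marks the gene body, and the colour of a point the number of lists with a peak. At Elf5, Sox10 and Trp63 the tall points lie away from the start, and at Kit and Prlr no point passes 13.6.

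Open promoters were found in every list at 3 of the 9 genes, Gata3, Esr1 and Sox9. Another 4, Elf5, Pgr, Prlr and Kit, had a promoter peak in 1 to 6 lists, and Sox10 and Trp63 had none. Over the genome, the promoter was open in every list at 47.0% of protein-coding genes, in 1 to 6 lists at 10.7%, and in at least 1 list at 57.7%. At Elf5, Sox10 and Trp63 the region with the highest -log10 q lay outside the gene's own promoter, as the map of regions around the 9 genes shows. That was not particular to them, since it held at every other locus but Gata3. The folds given below for each gene are as deposited. Over all shared regions the fold itself shifted against normoxia by a median of -0.41, 0.07, 0.04, -0.13, -0.02 and -0.23 on the log2 scale from 6 to 72 h, and a change is called centred where that shift has been taken off.

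Elf5 (chr2:103251845-103291146, plus strand) encodes the ETS factor that drives alveolar differentiation downstream of prolactin. Its first start carried a peak (region 2) at 12 h, with a fold of 4.49, and at 36 h, with 3.73. An internal start 13.2 kb further on carried one (region 3) in normoxia, at 12 h and at 24 h, with folds of 4.15, 3.89 and 3.87. These were small peaks of 7 to 14 summit reads, and with -log10 q of at least 5 only the 12 h list kept an Elf5 promoter peak. The strong site of the locus was region 6, 53 kb past the first start in an intron of Cat, which encodes catalase. Its fold was 16.1 in normoxia and 10.5, 16.4, 17.8, 11.5, 13.5 and 15 at the 6 hypoxia times in order (6 to 72 h). The 6 h and 36 h lists were low and the 24 h list was above the others. Region 7, at the promoter of Cat itself, varied less, from 11.3 at 72 h to 13.1 in normoxia.

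Gata3 (chr2:9778705-9811661, minus strand) encodes the zinc-finger factor that maintains luminal cells. It had 12 regions, 5 of them in all 7 lists. At its first start, a region shared with the start of 9230102O04Rik had a fold of 7.42 in normoxia and 4.28, 7.94, 8.01, 6.89, 5.72 and 6.77 from 6 to 72 h. At a start inside the gene, region 8 stayed between 4.73 and 5.84 and region 7 between 3.57 and 4.14, the narrowest ranges of its 5 shared regions. The distal region 1, 71.7 kb past the first start, spread further. Its fold was 7.79 in normoxia and 4.32, 9.59, 11.2, 7.46, 11.1 and 4.26 from 6 to 72 h. As deposited, it was low at the first and last times and high at 24 and 48 h. The 6 h dip depends on the scale: the centred change was -0.44 by fold and 0.10 by summit reads over genome background. At 72 h these were -0.64 and -0.39. Counting standard errors were 0.45 to 0.55.

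Esr1 (chr10:5340927-5734948, minus strand), the gene of estrogen receptor alpha, had 20 regions, the most of the 9 loci in the longest window (494.02 kb). Of these, 10 were in 1 list alone. Promoter region 15, with its summit in an intron, had a fold of 6.10 in normoxia and 3.23, 5.03, 4.68, 3.89, 4.46 and 3.91 from 6 to 72 h. All 6 hypoxia values were below that of normoxia. Region 17, just upstream of the start, had 4.83 in normoxia and 2.87 to 6.39 in hypoxia, on both sides of normoxia. The strongest site of the gene was region 14, 9.59 kb into the gene, with 11 in normoxia and 8.60, 11.6, 12.0, 12.0, 10.4 and 10.6 from 6 to 72 h. An intronic site 111 kb into the gene (region 11) is described with the changes over time.

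Pgr and Prlr encode the progesterone receptor and the prolactin receptor. Regions per kb were higher at 59.3% of protein-coding genes than at Pgr, and at 74.8% than at Prlr. Pgr (chr9:8900419-8965425, plus strand) had 8 regions, of which region 7 in an intron was in every list. Its fold was 7.79 in normoxia and 5.14, 7.46, 9.14, 6.52, 7.22 and 5.68 from 6 to 72 h, so 24 h alone was above normoxia as deposited. With summit reads over genome background in place of the fold, again centred, the region was above the median region at 5 of 6 times. The Pgr promoter had a peak at 6 h and in no other list, with 17 summit reads and a fold of 3.28. Prlr (chr15:10106993-10303504, plus strand) had 9 regions, of which region 2, 15.3 kb into the gene, was in every list. Its fold was 7.21 in normoxia and 4.83, 5.05, 5.59, 5.39, 6.57 and 5.84 from 6 to 72 h, below normoxia as deposited. Its centred changes on reads over background lay on both sides of 0, at 0.39, -0.49, -0.29, -0.10, 0.05 and 0.50. Its promoter peak, at a start 137 kb into the gene, was present at 12 h and 48 h, with folds of 5.69 and 3.09. Region 1, before the first start and outside the promoter distance, was present from 12 to 48 h, with folds of 2.69 to 4.57.

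Kit (chr5:75970941-76052747, plus strand) had 2 regions in 181.81 kb, and 87.5% of protein-coding genes had more regions per kb. Its intronic region 2, 14.9 kb from the start, had a fold of 6.75 in normoxia and 4.19, 7.73, 4.66, 5.68 and 4.26 from 12 to 72 h, and was missing at 6 h. At its median level over background it would have had 22.5 summit reads at 6 h, where the weakest listed peak had 11. That expectation makes no allowance for the level of each list. Shared regions stood at a median of 9.53 times genome background at 6 h, against 13.9 to 28.1 times in the other lists. The expected count is therefore too high, and the missing peak cannot be read as a loss. The Kit promoter had a peak at 6 h alone, with 15 summit reads and a fold of 3.76. Across the 9 loci, 5 regions were missing at 6 h alone (beside 3.95% of all regions): that of Kit, Gata3 region 11, Sox9 region 6, Sox10 region 2 and Trp63 region 2.

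Sox9 (chr11:112643538-112649074, plus strand) had no other protein-coding gene in its window and 10 regions, 7 of them in all 7 lists. Its promoter, region 4, was steady by fold, with 6.80 in normoxia and 6.24, 5.91, 7.03, 6.94, 6.80 and 7.37 from 6 to 72 h. Its centred change lay between -0.27 and 0.35 by fold and between -0.39 and 0.08 on reads over background. Region 2, at -24.0 kb from the start, reached a -log10 q of 89.4 and had 12.9 in normoxia and 9.65, 13.9, 14.1, 11.1, 15.2 and 12.1 from 6 to 72 h. Region 8, 29.5 kb past the start, had 15.5 in normoxia and 7.02, 13.3, 14.5, 14.4, 15.3 and 12.0 from 6 to 72 h, with 6 h far below the rest. The size of that dip depends on the scale: its centred 6 h change was -0.73 by fold and -0.23 on reads over background. Past the gene, 4 regions in a row, 6 to 9, each held both an AP-1 and a SOX motif, a set noticed after the motif search.

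Sox10 (chr15:78985343-78994920, minus strand) had no promoter peak in any list, yet 4 of its 10 regions were in all 7. Region 8, at -12.6 kb from the start, had a fold of 12.6 in normoxia and 6.14, 10.5, 10.1, 8.55, 9.74 and 11.4 from 6 to 72 h, below normoxia as deposited. The direction depends on the scale: the centred change of the fold was -0.63 at 6 h and 0.08 at 72 h, and on reads over background it was 0.25, 0.11, -0.36, 0.10, 0.03 and 0.40. Region 4, in an intron of the neighbour Micall1, had 11.5 in normoxia and 5.77, 12.7, 12.4, 9.72, 12.3 and 8.90 from 6 to 72 h. The other 2 lay at the promoters of Micall1 and of Polr2f, which encodes an RNA polymerase subunit, and are assigned to Sox10 by distance alone.

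Trp63 (chr16:25683849-25892188, plus strand) had 18 regions and no promoter peak in any list, at any of its 3 annotated starts. Of these, 8 were in all 7 lists, 5 inside the gene and 3 past it. Region 18, 259 kb past the first start and across the edge of the window, reached the highest -log10 q of the 96 regions (90.8). Its fold was 15.3 in normoxia and 10.6, 13.1, 14.9, 14.5, 15.2 and 12.5 from 6 to 72 h. After centring the fold differed from normoxia by -0.30 to 0.05. The intronic region 8 had 7.42 in normoxia and 7.63, 8.90, 7.38, 7.76, 9.94 and 8.65 from 6 to 72 h, close to or above normoxia.

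**Figure D2:**
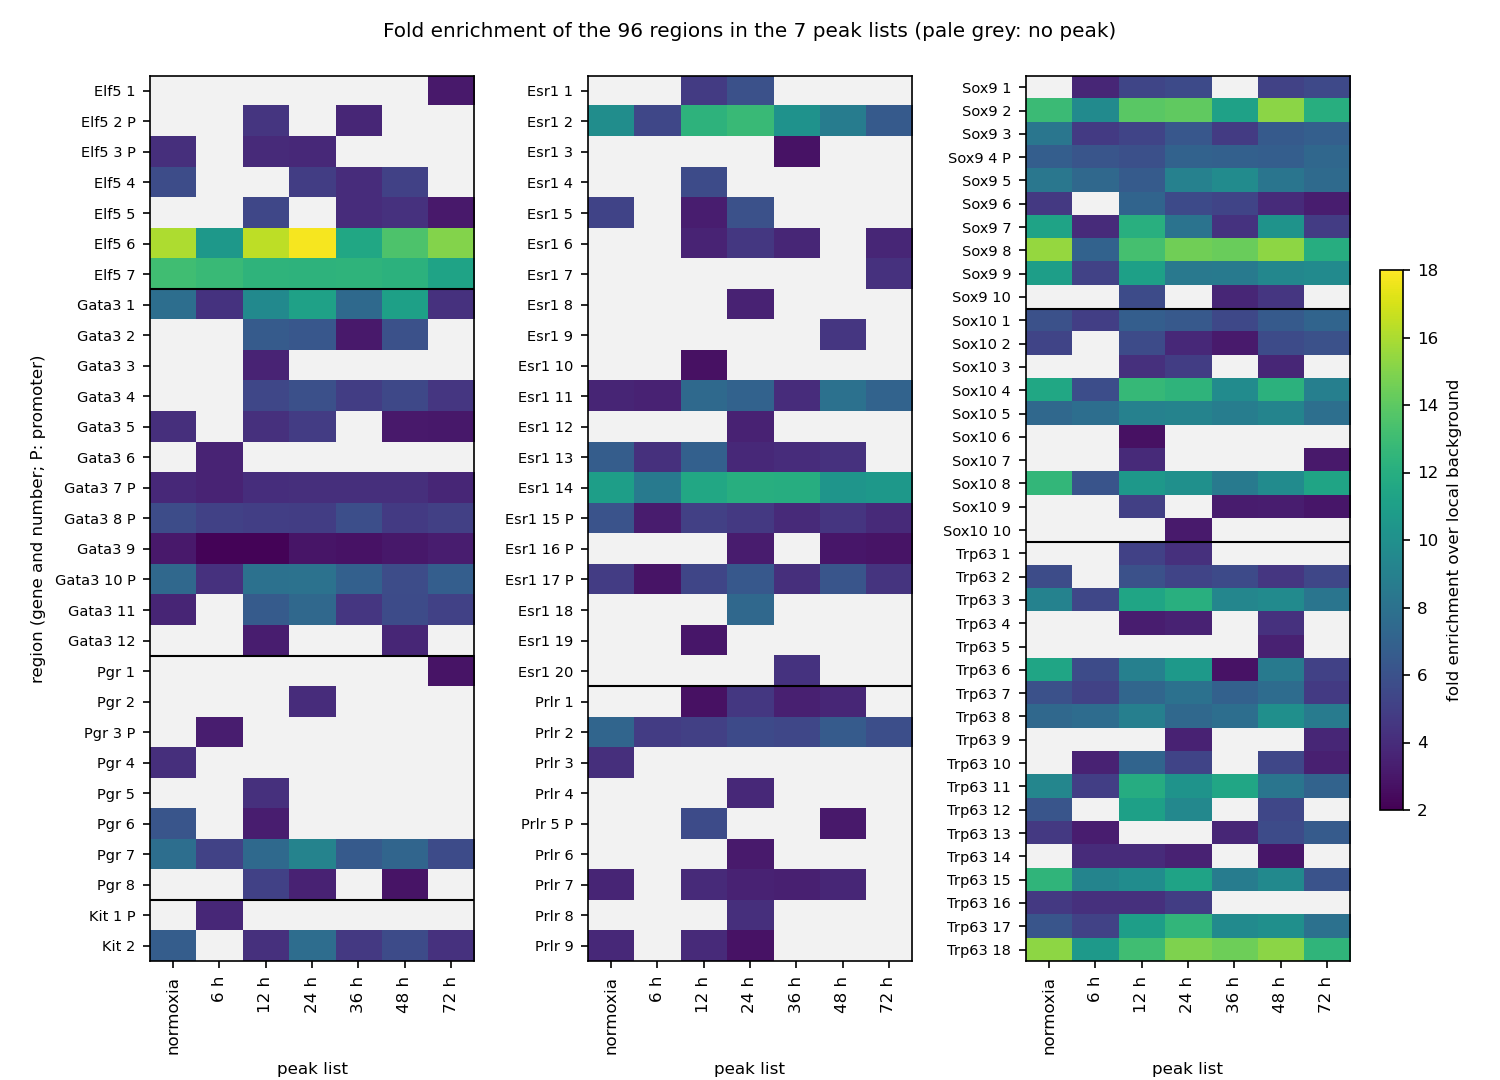
Fold enrichment of each of the 96 regions (rows, numbered within each gene, P for a promoter region) in the 7 lists (columns). Pale grey marks lists with no peak. The strong rows, such as Elf5 6, Sox9 8 and Trp63 18, run through every list, and the 6 h column has 42 regions against 72 at 12 h.

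No region was present in all 6 hypoxia lists and missing in normoxia, beside 1.5% of all regions. Without the 36 h list, Sox9 region 1 and Trp63 region 10 would count, and without the 6 h list, Gata3 region 4. At their median levels these would have had 6.99, 6.62 and 7.91 summit reads in normoxia, where the weakest listed peak had 5. Again no allowance was made for the level of each list. Shared regions stood at a median of 28.1 times genome background in normoxia and 9.53 to 22.2 times in hypoxia. These expected counts are therefore too low. A pair of regions was found in normoxia alone, beside 2.75% of all regions: Pgr region 4 and Prlr region 3, both intronic. Each had a fold of 4.15 from 7 summit reads, with an exact Poisson interval of 2.81 to 14.4 reads that covers counting error only. Counted list by list, 6, 25, 22, 10, 17 and 12 regions were present at the 6 times in order and missing in normoxia, which is 10.5%, 32.9%, 30.1%, 16.4%, 25.0% and 19% of the regions of the compared lists. Over the genome these shares were 10.0%, 32.2%, 25.5%, 19.8%, 27.4% and 22.8%. In the other direction, 15, 4, 4, 9, 7 and 11 were present in normoxia and missing at those times, or 26.3%, 5.26%, 5.48%, 14.8%, 10.3% and 17.5%, beside 27.0%, 6.09%, 10.4%, 16.2%, 9.41% and 17.5%. The lists with many peaks thus gained regions and the 6 h list lost them, at the 9 loci as over the genome.

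The fold in the 33 shared regions was then set against normoxia on the log2 scale, less the median of all 36113 shared regions at that time. All 6 times share the normoxia list. The median change of the 33 regions was -0.17, 0.00, 0.07, 0.02, -0.01 and 0.04 in order from 6 to 72 h, with a counting half-width of 0.15 to 0.17. On summit reads over genome background, the 6 h median was -0.024. Past 1.5-fold higher were 0, 2, 2, 1, 2 and 1 of the 33 regions at the 6 times, beside 4.95%, 7.94%, 6.74%, 5.65%, 7.23% and 7.43% of all shared regions. Past 1.5-fold lower were 6, 3, 0, 3, 0 and 4, beside 7.82%, 2.03%, 4.07%, 5.83%, 3.61% and 7.51%. On reads over background the counts were 3, 2, 5, 5, 3 and 2 higher, beside 14.6%, 13.1%, 13.5%, 13.0%, 14.3% and 16.8% of all shared regions, and 3, 3, 2, 4, 1 and 3 lower, beside 7.48%, 5.23%, 8.65%, 8.57%, 7.86% and 11.6%. By fold, none of the 33 passed 1.5-fold in the same direction at all 6 times, beside 0.568% of all shared regions higher and 0.0748% lower. On reads over background, an alternative chosen after seeing the data, 2 did, Esr1 region 11 and Trp63 region 17, both higher, beside 3.05% of all shared regions higher and 0.266% lower. By fold, 5 of the 33 were above the median of all shared regions at all 6 times (15.7% of all shared regions) and 5 below it (15.3%).

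**Figure D3:**
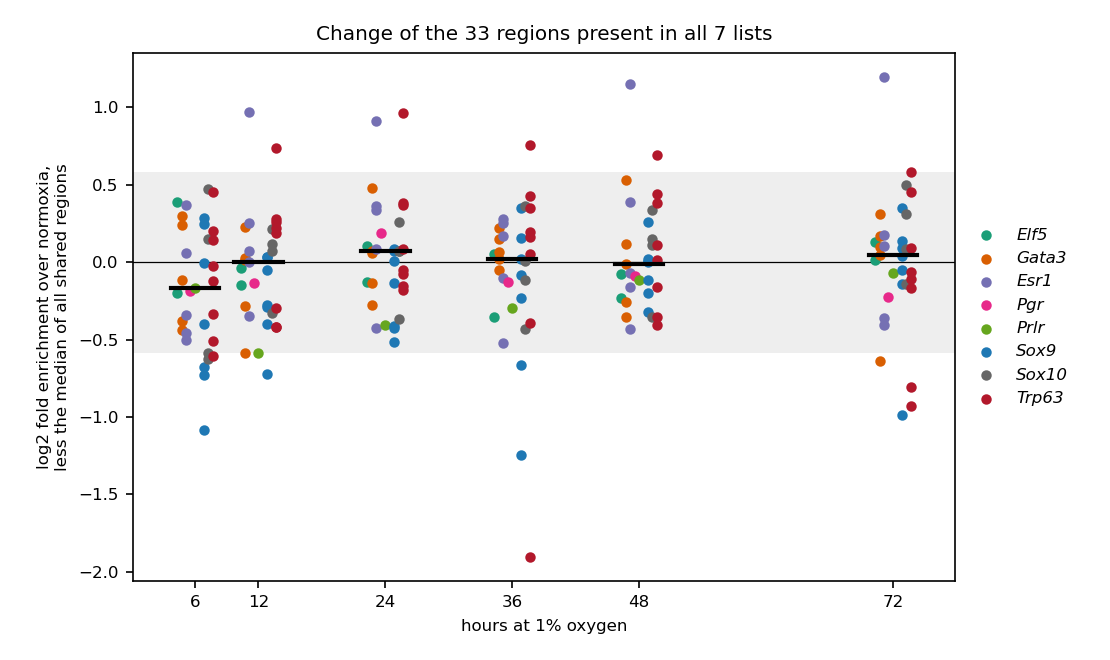
Change of the 33 shared regions against hours at 1% oxygen, as log2 of fold over normoxia less the median of all shared regions. Points are regions coloured by gene, the black bars mark the medians (-0.17 at 6 h and -0.01 to 0.07 later), and the grey band spans 1.5-fold in either direction. A purple Esr1 point is the highest at 48 and 72 h and a red Trp63 point falls to -1.90 at 36 h.

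The region that stood furthest above normoxia was Esr1 region 11, in an intron (chr10:5623307-5623929). Its fold was 3.63 in normoxia and 3.53, 7.48, 7.03, 4.04, 7.96 and 7.10 from 6 to 72 h. The changes were 0.37, 0.97, 0.91, 0.28, 1.15 and 1.20, with counting standard errors of 0.65 to 0.72, since normoxia had 6 summit reads. None of the 15 motifs searched was found within 100 bases of its summit. Trp63 region 17, whose sequence is shown above, had a fold of 6.23 in normoxia and 5.17, 10.9, 12.5, 9.63, 9.95 and 7.95 from 6 to 72 h. Its changes were 0.14, 0.74, 0.96, 0.76, 0.69 and 0.58, with counting standard errors of 0.49 to 0.54. On reads over background the changes were 0.62 to 1.61 for Esr1 region 11 and 0.67 to 1.18 for Trp63 region 17.

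On the other side, the Esr1 promoter region 15 changed by -0.50, -0.35, -0.42, -0.52, -0.43 and -0.41, with counting standard errors of 0.38 to 0.47. Trp63 region 15, 222 kb past the first start, had a fold of 12.5 in normoxia and 9.19, 9.77, 11.3, 8.70, 9.62 and 6.07 from 6 to 72 h, with a change of -0.81 at 72 h (counting standard error 0.35). A further pair was chosen after the values were seen. Trp63 region 6 had a fold of 2.80 from 8 summit reads at 36 h, against 5.11 to 11.4 in the other lists. Sox9 region 7 had 11.3 in normoxia and 3.98, 12.1, 8.08, 4.35, 10.2 and 4.83 from 6 to 72 h. It was past 1.5-fold lower at 3 of the 6 times (6, 36 and 72 h), while 12 and 48 h lay near normoxia.

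Whether accessibility moved with time was asked per locus, with the median change of its shared regions against hours over the 6 hypoxia lists. The 8 loci with shared regions could be tested, since Kit has no shared region. A locus was called if either its Spearman rho or its Pearson r passed after adjustment, with no correction for using both. The median of the 7 Sox9 regions was -0.40, -0.27, -0.13, -0.08, 0.00 and 0.04 from 6 to 72 h, an unbroken order (Spearman rho = 1.00, two-sided exact permutation p = 0.00278, the smallest that 720 orders allow, adjusted p = 0.0222; Pearson r = 0.93, exact p = 0.00833, adjusted p = 0.0667). Without 72 and 6 h, the times farthest from the median, r was 0.98. The start of that order is the low 6 h list, and the end is the level of normoxia. With 8 loci, an order with a single swap gives an adjusted p of 0.133, so only an unbroken order could pass by rho alone. With regions of -log10 q of at least 5 (6 regions), rho was 0.94 (exact permutation, adjusted p = 0.133) and r was 0.91 (adjusted p = 0.0889), a relation of similar size that this design could not call. With a 10 kb window, which keeps the promoter and region 5, rho was -0.14 (exact permutation, adjusted p = 1.00). At the other 7 loci rho ran from -0.37 for Elf5 to 0.77 for Sox10, with adjusted p of 0.35 to 1.00 by the exact permutation test.

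**Figure D4:**
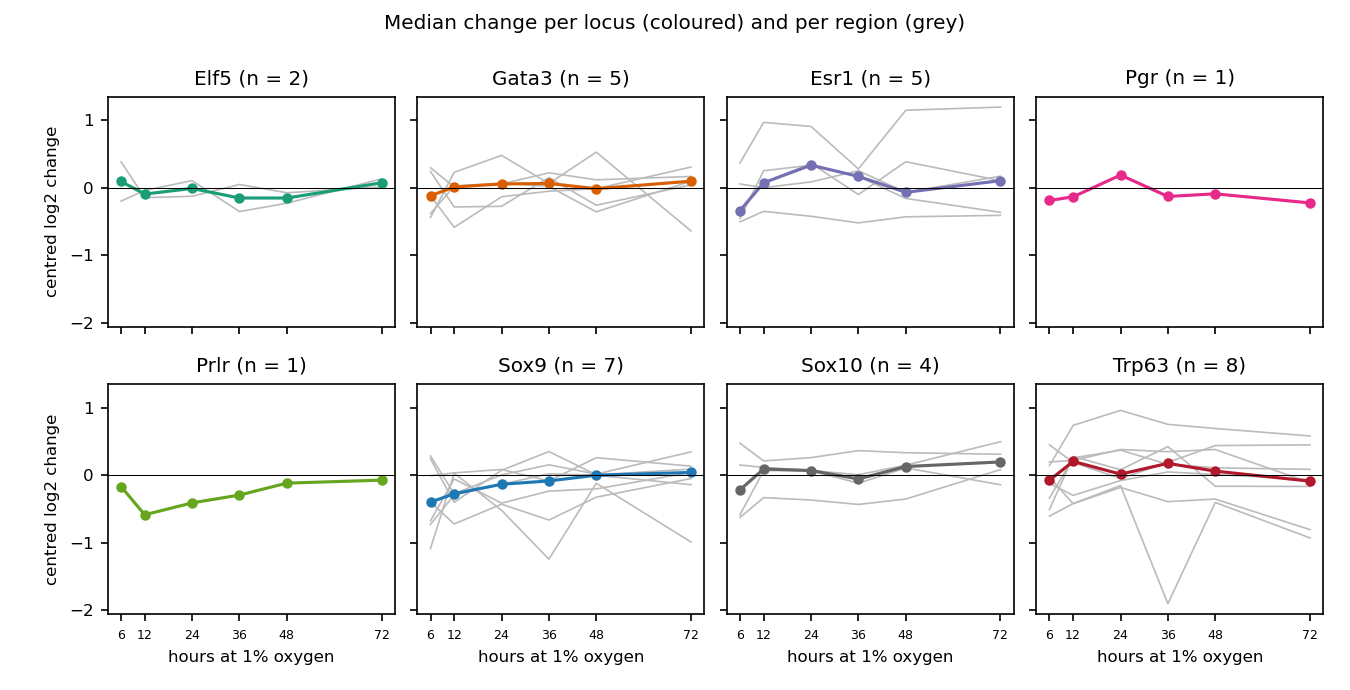
Change against hours for the 8 loci with shared regions (n, the number of regions). Grey lines are regions and the coloured points are the locus medians, as log2 of fold over normoxia less the median of all shared regions. The Sox9 medians climb from -0.40 to 0.04, while its single regions cross one another.

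The bases under the summits were compared with those of all regions. The AP-1 motif was present in 43 of the 96 regions (44.8%, beside 37.5% of all regions) and in 20 of the 33 shared regions (60.6%, beside 44.1% of all shared regions). Among shared distal regions it was in 16 of 23 (69.6%, beside 57.9% of 25776). By locus, 6 of 8 shared regions of Trp63, 5 of 7 of Sox9, 3 of 5 of Esr1, 2 of 5 of Gata3, 2 of 4 of Sox10, 1 of 2 of Elf5 and the shared region of Prlr held it. The GATA motif (AGATAA or TGATAA) was in 16 of 96 (16.7%, beside 14%) and the SOX motif in 14 (14.6%, beside 26.2%). The ETS motif, bound by factors such as ELF5, was in 29 (30.2%, beside 33.4%), and the RUNX motif TGTGGT in 18 (18.8%, beside 20.7%). In the 23 shared distal regions alone, the shares were 8.7% for GATA (beside 13.5%), 26.1% for SOX (beside 27.7%), 13.0% for ETS (beside 34.1%) and 4.35% for RUNX (beside 24.7%). The STAT motif TTCNNNGAA, bound by the prolactin-activated STAT5, was in 8 (8.33%, beside 6.48%), and the core bound by hypoxia-inducible factors (ACGTG or GCGTG) in 22 (22.9%, beside 23.6%). The motifs were read on both strands and may overlap each other. The palindromic estrogen receptor motif (GGTCA, 3 bases, TGACC), the progesterone receptor motif (GNACA, 3 bases, TGTNC), the NFI motif (TTGGC, 5 bases, GCCAA) and the p53-family motif (with up to 1 mismatch) were in none of the 96 windows and in 0.0634%, 0.384%, 0.0496% and 0.0846% of all regions. The remaining motifs, for TEAD (GGAATG), FOX, CEBP (TTGCNNAA) and CTCF (CC, 3 bases, AG, 2 bases, GGC), were in 14, 2, 8 and 9 of the 96, or 14.6%, 2.08%, 8.33% and 9.38%, beside 16.5%, 3.05%, 8.73% and 9.05% of all regions. In the 23 shared distal regions, TEAD was at 30.4% (beside 20.7%), STAT at 13.0% (beside 6.9%) and CTCF at 13.0% (beside 5.69%). There the core bound by hypoxia-inducible factors was at 26.1% (beside 22.6%), FOX at 4.35% (beside 3.28%) and CEBP at 8.7% (beside 8.98%). These shares rest on 1 to 7 regions each. The median GC content was 48.8% in the 96 regions and 48.3% in all.

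Other mammary genes were counted by promoter pattern. Of 9 genes of hormone-sensing luminal cells, Foxa1 and Areg, an estrogen-induced growth factor, had a promoter peak in all 7 lists, Cited1 in 4 lists, and 6, among them Greb1, Wnt4 and Tnfsf11, in none. Of 9 alveolar and milk genes, Stat5a, Stat5b, Elf3 and Csn3 were open in all 7 lists and Ehf in 5, while the milk genes Csn1s1, Csn2, Wap and Lalba had no promoter peak. Of 6 luminal progenitor genes, Cd14, Itga2, Foxc1 and Runx1 were open in all 7 lists, Aldh1a3 at 6 h alone and Spib in none. Of 10 basal genes, Krt14, Mylk, Oxtr, Snai2, Lgr5 and Procr were open in all 7 lists and Krt5, Krt17, Acta2 and Myh11 in none. The share of genes open in all 7 lists is 47.0% over the genome, as given above.

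For the 3 members with a promoter peak in every list, the promoters with the most similar pattern of fold over the 7 lists were sought among 10518 genes. For Gata3 they were those of Phc2 (r = 0.97), Arsb (0.96) and Sccpdh (0.95), for Esr1 those of Efhb (0.98), Dus3l (0.97) and Map3k10 (0.97), and for Sox9 those of Mdm1 (0.99), Manf (0.99) and Klf6 (0.98). These values describe 7 points that share list depth, and 14, 27 and 141 genes passed an r of 0.9 with Gata3, Esr1 and Sox9.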

How the data were processed

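Bulk Pi-ATAC was done on 14 samples in 7 groups of 2, with groups taken from the labels. Per the methods, after adapter trimming the authors used Bowtie2 2.1.0 (mm9) for alignment and Picard 1.79 for duplicates, merged replicates and called narrow peaks with MACS2. The deposited lists hold, per peak, a fold enrichment and -log10 p-value and -log10 q-value columns, with no scaling. The fold is the ratio of summit reads to local background, with the same small constant added to both. The weakest peaks had a -log10 q of 1.30 to 1.31, looser than the stated threshold. Library totals were not used here. Summit reads and background were recovered from fold and p. The largest error in -log10 p was 0.000255.

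Peaks that overlap or touch were merged, and regions were assigned to genes with GENCODE annotation of NCBIM37. The centred change, exact permutation tests with Benjamini-Hochberg adjustment over 8 loci and motif searches were computed with scipy 1.17.1, pysam 0.24.0, pandas 2.3.3 and numpy 2.4.6 under Python 3.11.15. Scripts were tested on simulated data. No replicate error exists, so the counting error of summit reads stood in for it, and intervals cover counting error only.

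Members, gene lists and motifs were chosen with earlier results of these data known. Regions named were all within 1 kb of a member's start, up to 3 others per gene ranked by number of lists and -log10 q, and those in normoxia alone. The rule also named the promoters most like each member's. All other regions named were chosen after their values were seen. Alternatives were a -log10 q of 5, the 20000 strongest peaks, merging within 200 bp, a 10 kb window, a 5 kb promoter distance, reads over background and leaving out lists or genes.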

Additional observations from a re-analysis of the deposited data

How the results depend on the processing

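No paired analysis was possible because the replicates of a group had been pooled before peaks were called. The count of 96 regions became 27 with the 20000 strongest peaks of each list and 59 with a 10 kb window. The 0 regions found at every hypoxia time but not in normoxia became 1 with the 20000 strongest peaks, and 0 to 2 when a hypoxia list was left out. The 2 regions in normoxia alone became 1 with a -log10 q of at least 5 and 0 with the 20000 strongest peaks. The median change moved from -0.17 to -0.024 at 6 h and from 0.07 to -0.013 at 24 h with reads over background, and from 0.02 to 0.16 at 36 h with a 10 kb window. Leaving out a gene gave medians of -0.19 to -0.14 at 6 h, -0.05 to 0.02 at 12 h, 0.03 to 0.07 at 24 h, 0.01 to 0.05 at 36 h, -0.07 to 0.00 at 48 h and 0.03 to 0.08 at 72 h. The single locus with a relation to hours, Sox9, did not pass (0 loci) with regions of -log10 q of at least 5, where its rho of 0.94 was too small for 8 loci to pass, nor with a 10 kb window, where its rho was -0.14. With reads over background, Sox9 passed by Pearson r (0.93, exact permutation adjusted p = 0.0333) but not by rho (0.94, adjusted p = 0.133). By fold it passed by rho but not by r, so neither statistic passed on both scales. On reads over background, the 6 h changes of Sox10 region 4 (0.11) and region 8 (0.25) were reversed from -0.59 and -0.63. The 0 regions past 1.5-fold the same way at all 6 times became 2 on that scale, an alternative chosen after seeing the data. The causes were not tested. The 3 genes with a promoter peak in every list stayed within 2 to 3 under every alternative run: Esr1 dropped out with a -log10 q of 5 or more (6 of 7 lists) and with the 20000 strongest peaks (0 lists). Leaving out the 6 h list, an alternative chosen after seeing the data, gave 93 regions, 3 such promoters and 2 regions in normoxia alone. With a 5 kb promoter distance, the lists with a promoter peak rose from 0 to 2 at Sox10 and at Trp63. They rose from 2 to 5 at Prlr and from 1 to 2 at Pgr, and stayed at 4 for Elf5 and 1 for Kit. Depth limits what small peaks can show: the weakest had 5 summit reads in normoxia and 11 at 6 h.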
